A study of Mus musculus with 18 samples.

Results

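Levels of 10 genes of the NF-kB pathway were followed across hematopoietic stem cells (HSCs) of young and aged mice. They were chosen by symbol from the 24421 genes of the count table and are the subunit genes Nfkb1, Nfkb2, Rel, Rela and Relb, the inhibitor and feedback genes Nfkbia, Nfkbiz, Tnfaip3 and Birc3, and the adhesion gene Icam1. RNA was sequenced from 18 libraries, 3 from each of 6 groups: LT-HSCs, ST-HSCs and bulk-HSCs of young mice, aged 2 to 3 months, and of aged mice, aged 23 to 25 months. All mice were Hoxb5-tri-mCherry animals on a C57BL/6J background, in which mCherry reports the transcription factor gene Hoxb5, and the labels name no treatment. Bulk-HSCs were HSCs defined by surface antigens alone, LT-HSCs (long-term HSCs) were those with the Hoxb5 reporter and ST-HSCs (short-term HSCs) those without it, so bulk-HSCs hold both kinds of cell. The sources used here do not say how many animals went into a library or whether libraries of one replicate number share an animal, so the p-values measure the spread between libraries.

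NF-kB is a family of dimeric transcription factors that is held in the cytoplasm by IkB proteins until receptors for tumor necrosis factor, interleukin-1 or microbial products activate the IkB kinases. Released dimers enter the nucleus and switch on inflammatory, survival and adhesion genes, among them the genes of their own inhibitors, which close the response. Most of this regulation acts on proteins, so transcript levels show the amount of message for subunits and targets and not the activity of the factor. In blood stem cells the pathway is known for its part in the response to infection and inflammation.

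The 300-base promoter windows of the members (250 bases before to 50 after a start site, RefSeq, GRCm38.p6) were searched on both strands for the kappaB consensus, the 10-base motif that NF-kB dimers bind. RefSeq windows were at hand for 7 members, 10 windows in all, and not for Nfkb1, Relb and Nfkbiz. At least 1 match was found for 4 members: Tnfaip3, Rel, Nfkbia and Nfkb2. The windows of Birc3, Icam1 and Rela and a second window of Tnfaip3 held none. A match was held by 6 of the 10 member windows and by 4.51% of 32851 mouse promoter windows of the same length. The windows below are shown because these 4 genes are the members with a match. Capitals mark the matches, each sequence runs 5' to 3' on the strand of its gene, and a match is a description of the letters and not a tested site. In the Tnfaip3 window the matches begin at -125 and -12 relative to the start site, and in the Rel window 3 overlapping matches share 11 bases from -92. The Nfkbia window holds 1 match at -29 on the opposite strand, and in the first Nfkb2 window 3 overlapping matches share 11 bases from -39, with another at -11. Nfkb2 has 2 further start sites with matches, not printed, at -236 and 11 in one window and at -225 in the other, which is the same site as that at 11.
Tnfaip3, chr10:19015361-19015660, minus strand: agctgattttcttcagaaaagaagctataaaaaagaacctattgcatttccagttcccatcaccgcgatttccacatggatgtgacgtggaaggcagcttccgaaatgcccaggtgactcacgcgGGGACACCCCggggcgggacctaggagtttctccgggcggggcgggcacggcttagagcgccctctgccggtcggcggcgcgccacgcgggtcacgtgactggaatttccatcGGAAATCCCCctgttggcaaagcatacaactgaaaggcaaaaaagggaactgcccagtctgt
Rel, chr11:23770920-23771219, minus strand: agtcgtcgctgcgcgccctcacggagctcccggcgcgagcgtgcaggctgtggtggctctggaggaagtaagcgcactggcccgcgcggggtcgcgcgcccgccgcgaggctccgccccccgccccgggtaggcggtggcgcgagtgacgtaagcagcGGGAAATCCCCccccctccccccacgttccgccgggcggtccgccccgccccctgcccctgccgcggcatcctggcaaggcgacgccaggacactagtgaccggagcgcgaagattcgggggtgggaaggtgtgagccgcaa
Nfkbia, chr12:55492598-55492897, minus strand: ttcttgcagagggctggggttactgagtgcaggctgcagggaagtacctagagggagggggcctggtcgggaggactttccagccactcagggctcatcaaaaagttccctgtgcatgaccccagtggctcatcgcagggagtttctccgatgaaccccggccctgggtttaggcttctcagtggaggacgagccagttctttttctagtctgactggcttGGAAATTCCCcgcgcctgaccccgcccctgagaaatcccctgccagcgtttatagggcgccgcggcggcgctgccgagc
Nfkb2, chr19:46304487-46304786, plus strand: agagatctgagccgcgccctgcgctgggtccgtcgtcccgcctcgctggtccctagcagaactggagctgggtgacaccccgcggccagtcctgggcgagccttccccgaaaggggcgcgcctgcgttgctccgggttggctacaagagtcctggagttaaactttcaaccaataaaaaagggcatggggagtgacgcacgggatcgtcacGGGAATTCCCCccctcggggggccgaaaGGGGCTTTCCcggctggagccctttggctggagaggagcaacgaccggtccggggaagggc

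Libraries held 16495048 to 22973844 gene counts. Levels are given as CPM, counts-per-million values scaled with TMM factors, and 3 counts, the floor taken here for detection, correspond to 0.132 to 0.176 CPM, which covers counting error only. Hoxb5 was at 19.1 ± 18.4 CPM in young LT-HSCs and 23 ± 4.04 CPM in aged LT-HSCs (SD, n = 3), against 2.08 ± 1.93 and 2.21 ± 2.13 CPM in ST-HSCs. HSC markers were high, with the stem cell factor receptor gene Kit at 1075 to 1570 CPM, while the defining B cell genes Pax5, Ebf1 and Ms4a1, the T cell genes Cd3e and Cd3g and the stromal and endothelial genes Col1a1 and Cdh5 were at 0 counts in every library. Other genes of those lists had counts, with Cd79b at 10.6 to 29.2 CPM, Lck at 2.72 to 16.5 CPM and Emcn at 13.1 to 37.8 CPM, and Col1a2 reached 12.1 CPM. Summed megakaryocyte markers were 67.5 to 153 CPM in young and 104 to 175 CPM in aged libraries, mostly Itga2b, with Gp6 at 0 in all. Summed levels of 10 neutrophil markers were 46.0 to 130 CPM in young and 123 to 182 CPM in aged libraries, nearly all of it Prtn3, with 8 of the 10 below a mean of 1 CPM, and those of 10 macrophage markers were 129 to 188 CPM in young and 107 to 184 CPM in aged libraries. The young libraries detected fewer genes, 11548 to 13876 against 13526 to 14133 in aged ones. Among 1156 genes with a median of 100 to 200 counts, 7 to 267 were at 0 in a young library and 3 to 12 in an aged library. Young LT-HSC replicate 3 and young ST-HSC replicate 3 stood apart with 267 and 262 such genes, and the member effects within a fraction or between fractions that moved most or changed sign without the one in the comparison are given with and without it.

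Transcripts of all 10 genes were found in HSCs, and all 10 passed the filter of a mean of 1 CPM. Per kilobase of exon, Nfkbia, which encodes the inhibitor IkB-alpha, was the most abundant at 66.0 ± 11.7 CPM per kb (SD, n = 18 libraries), followed by Rela, the activating p65 subunit, at 32.6 ± 4.1 CPM per kb. Nfkbia exceeded Rela in 18 of 18 libraries, and Rela exceeded Nfkb1, the p105 and p50 gene, in 18 of 18. Nfkb1 stood at 15.8 ± 1.8 CPM per kb, but its exons sum to 12061 bases against 4149 bases in its longest transcript, and on the longest transcript its level was 46.0 CPM per kb and above the 36.9 CPM per kb of Rela. A middle group of Icam1 (11.6 ± 2.7), Nfkb2 (10.04 ± 1.71), Nfkbiz (9.11 ± 2.82) and Birc3 (8.50 ± 2.50 CPM per kb) overlapped in range, and among the first 3 of them each was above the next in 10 to 12 of 18 libraries. Tnfaip3 was lower at 4.46 ± 1.60 CPM per kb. Rel and Relb, the other subunits with an activation domain, closed the order at 2.26 ± 1.11 and 1.87 ± 1.21 CPM per kb, and Rel was above Relb in 11 of 18 libraries.

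**Figure D1:**
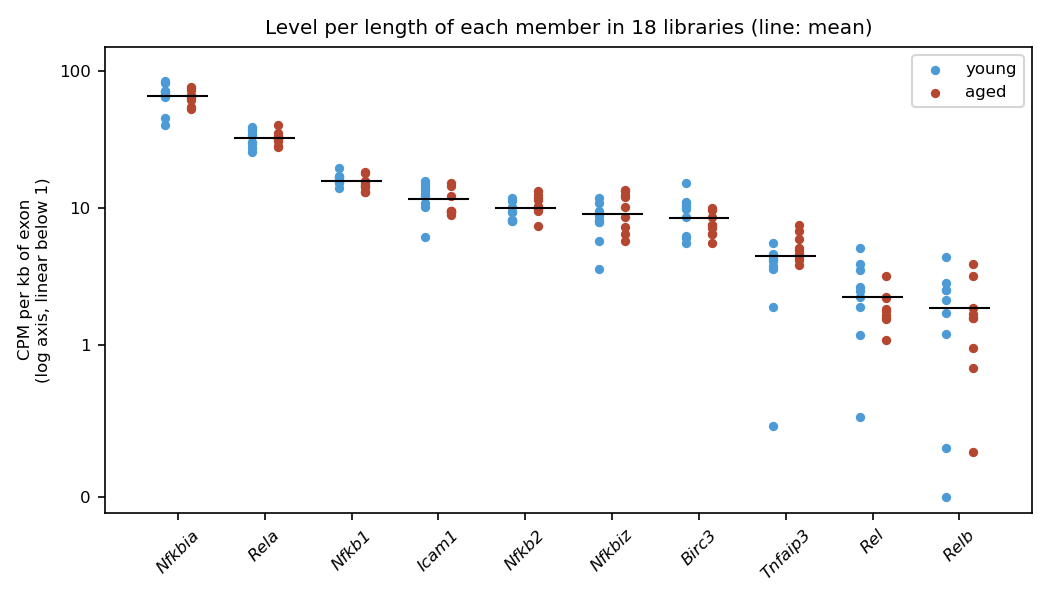
Level of each member per kilobase of its summed exons in 18 libraries, in CPM per kb on an axis that is logarithmic above 1 and linear below, with young libraries in blue, aged libraries in red and the mean as a line. Nfkbia (mean 66.0) and Rela (32.6) lie above the rest, and Rel (2.26) and Relb (1.87) at the bottom, where single young libraries fall far below the mean.

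The question of the comparison by age was whether these transcripts differ between aged and young HSCs of the same fraction. None of the 10 members passed an edgeR adjusted p of 0.05 in LT-HSCs, ST-HSCs or bulk-HSCs, or in the average over the 3 fractions. Over all 12808 genes tested, the share called was 6.75% in the average, 1.98% in bulk-HSCs, 0.851% in ST-HSCs and 0.445% in LT-HSCs, so 0 of 10 is near the background. At an unadjusted p under 0.05, 0 members in the average, 2 in bulk-HSCs, 1 in ST-HSCs and 2 in LT-HSCs remained, where 19.7%, 13.3%, 9.67% and 8.81% of all genes did. DESeq2 called 1 member, Birc3 in bulk-HSCs, and 0 in the other 3 comparisons. For 4 members, Nfkb1, Nfkb2, Rela and Nfkbia, all 3 age effects had 95% confidence intervals inside a 2-fold change in either direction. The intervals of the other 6 reached beyond it in at least 1 fraction, most of all those of Relb, from -3.59 to 2.70 on the log2 scale. The median log2 fold change of the members was -0.37 in bulk-HSCs, 0.12 in ST-HSCs and 0.16 in LT-HSCs, beside 0.03, 0.02 and 0.04 over all genes, and 2 of 10 members were above 0 in bulk-HSCs.

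**Figure D2:**
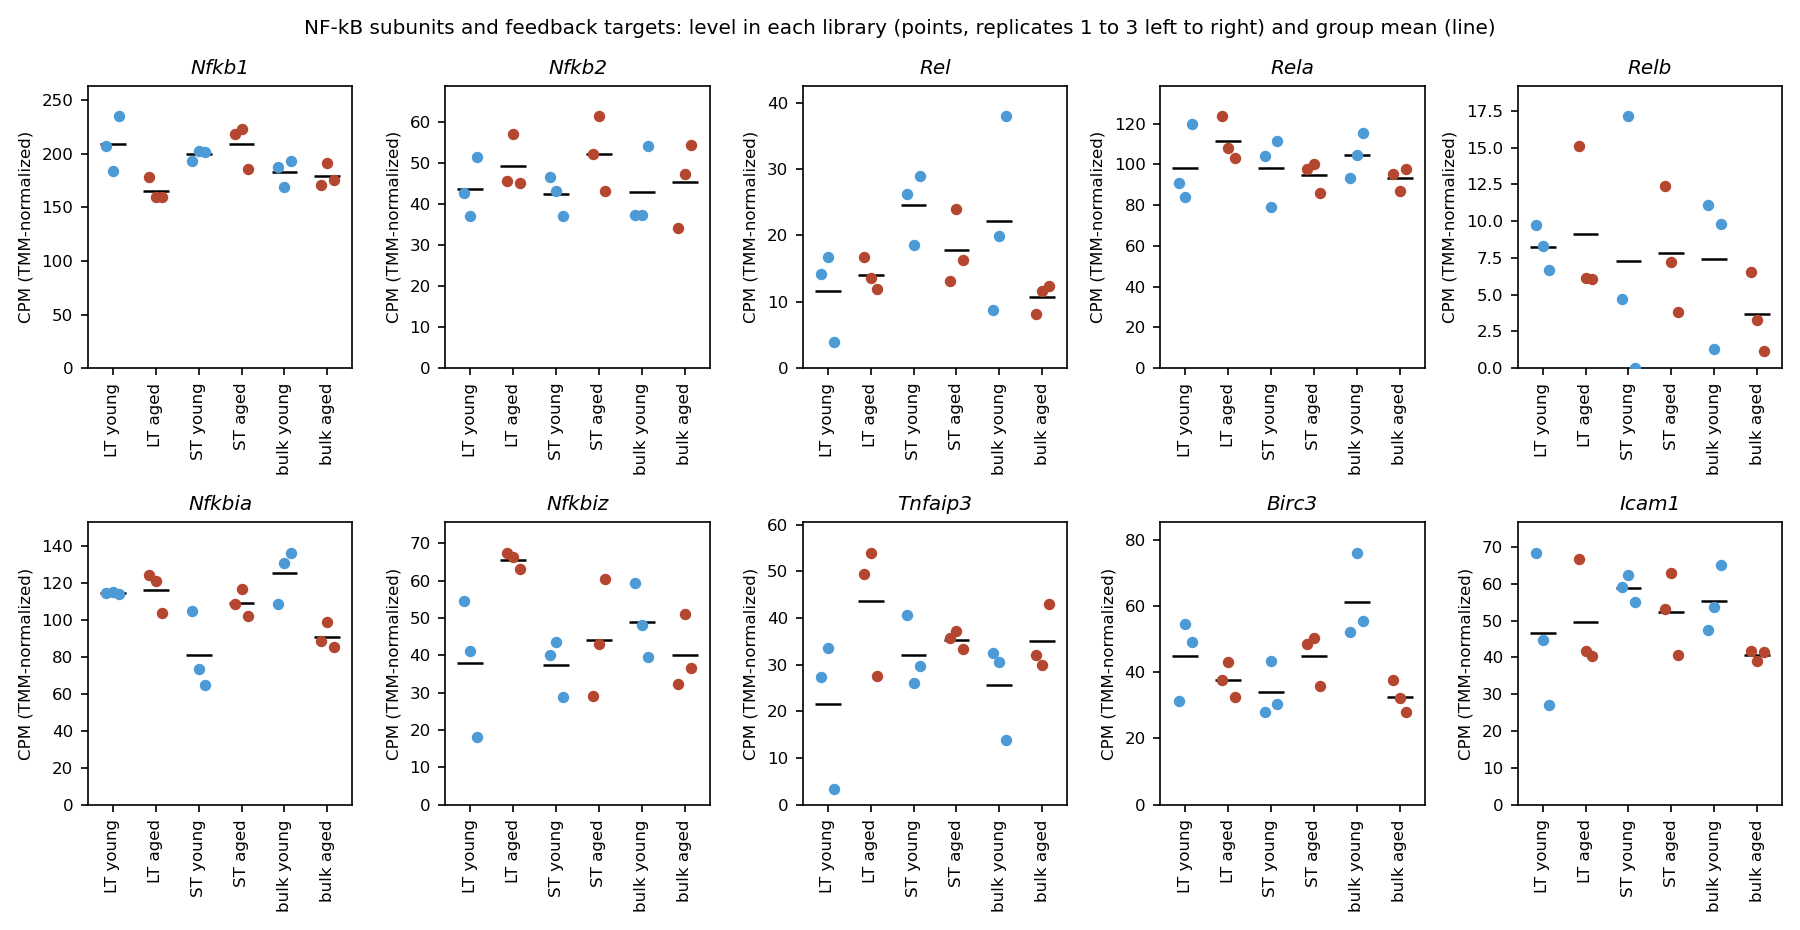
TMM-normalized CPM of each member in every library, with young libraries in blue and aged libraries in red, replicates 1 to 3 from left to right within a group, and the group mean as a line. Young LT-HSC replicate 3 is the lowest of all 18 libraries for Rel (3.92), Nfkbiz (18.2), Tnfaip3 (3.40) and Icam1 (27.1 CPM).

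**Figure D3:**
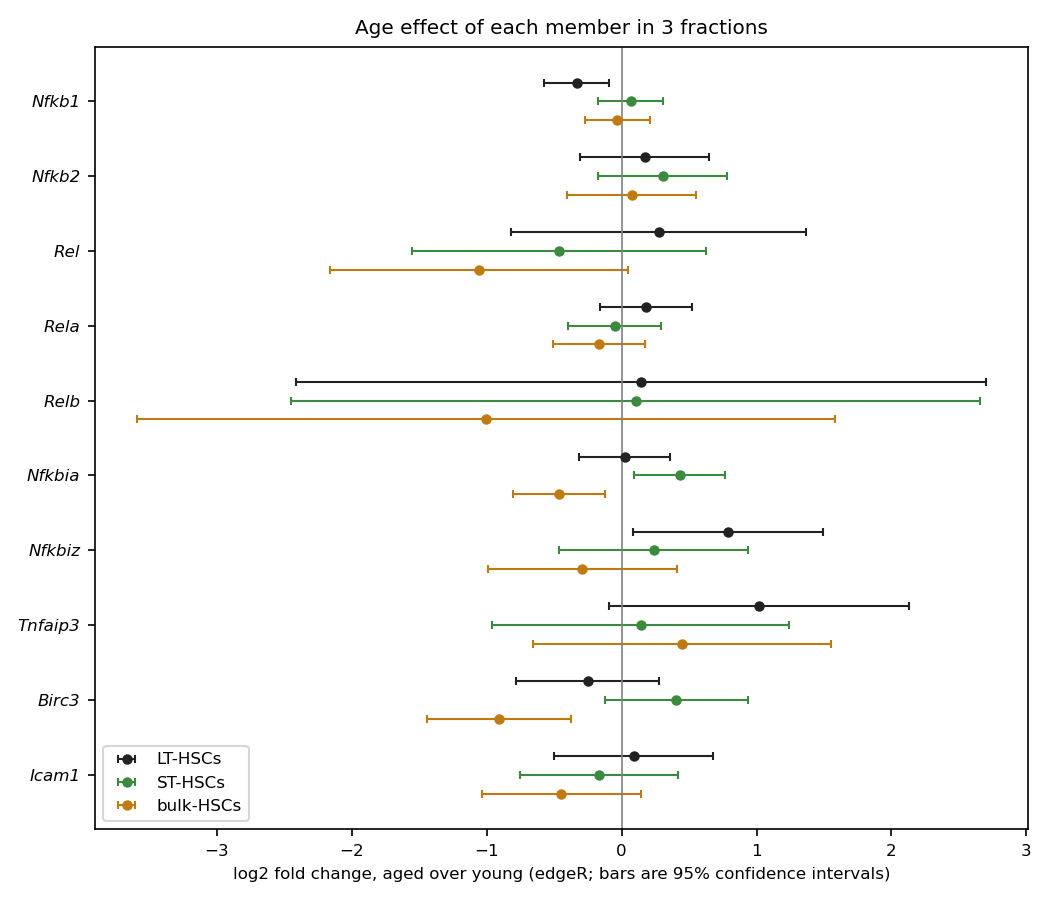
Change with age of each member in LT-HSCs (black), ST-HSCs (green) and bulk-HSCs (orange), as log2 fold changes with 95% confidence intervals from edgeR. Of 30 intervals 5 exclude 0, and the widest are those of Relb.

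Among the subunit genes, Nfkb1 (chr3:135584655-135691547, mm10, minus strand) encodes p105, which is processed to the DNA-binding subunit p50. It was read at 208, 184 and 235 CPM in young LT-HSCs and at 178, 159 and 159 CPM in aged LT-HSCs. All aged LT-HSC libraries lay below all young ones, as in 5.89% of genes. The log2 fold change was -0.33 (SE 0.11, edgeR adjusted p = 0.317), and -0.24 without young LT-HSC replicate 3. An exact two-sided permutation test gave p = 0.1, the smallest that 3 against 3 libraries allow. Its level was 193, 203 and 202 CPM in young and 218, 223 and 186 CPM in aged ST-HSCs, and 188, 169 and 194 CPM in young and 171, 191 and 175 CPM in aged bulk-HSCs. The groups overlapped in both of these fractions, with log2 fold changes of 0.07 (SE 0.11) and -0.03 (SE 0.11). Nfkb1 had the smallest spread of the members, with a coefficient of variation of 7.31% in young and 7.44% in aged groups.

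Rela (chr19:5637483-5648130, plus strand) encodes p65, the partner of p50 in the main inducible dimer. Its 18 values ran from 79.0 to 124 CPM, with group means between 93.2 and 112 CPM. On the log2 scale the age effect was -0.17 (SE 0.16) in bulk-HSCs, -0.05 (SE 0.16) in ST-HSCs and 0.18 (SE 0.16) in LT-HSCs, and young and aged libraries overlapped in each fraction. Without young LT-HSC replicate 3 the value in LT-HSCs was 0.35, and without young ST-HSC replicate 3 that in ST-HSCs was 0.053. Nfkb2 (chr19:46304320-46312385, plus strand), which encodes p100, the precursor of p52 in the non-canonical arm of the pathway, ran from 34.1 to 61.5 CPM. Its age effects of 0.17, 0.30 and 0.08 (SE 0.23 in each fraction) were all above 0 and within overlapping groups, and the first was 0.30 without young LT-HSC replicate 3. Exons of Psd and AC114539.1 lie over exons of Nfkb2 on the opposite strand, and whether the counting used strand is not given in the sources used here.

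Rel (chr11:23736847-23770970, minus strand) encodes c-Rel, a subunit best known from lymphocytes. In LT-HSCs it was at 14.2, 16.7 and 3.92 CPM in young and 16.7, 13.6 and 11.9 CPM in aged libraries, and in ST-HSCs at 26.3, 18.5 and 29.0 CPM in young and 13.2, 24.0 and 16.4 CPM in aged libraries. Bulk-HSCs held 8.79, 19.9 and 38 CPM in young and 8.11, 11.6 and 12.4 CPM in aged libraries. Young and aged libraries overlapped in every fraction, and the young bulk-HSC libraries alone held both a value near the bottom of the range of the gene and its highest value. The age effect in bulk-HSCs was -1.06 on the log2 scale (SE 0.52, edgeR adjusted p = 0.409), and -0.42 without young bulk-HSC replicate 3. In LT-HSCs it was 0.27 (SE 0.52), and -0.14 without young LT-HSC replicate 3. In ST-HSCs it was -0.46 (SE 0.52), and -0.32 without young ST-HSC replicate 3.

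Relb (chr7:19606217-19629438, minus strand), the partner of p52, was the least abundant member and the most variable. It was at 4.68, 17.1 and 0 CPM in young ST-HSCs and at 11.1, 1.27 and 9.81 CPM in young bulk-HSCs, so that replicates of young ST-HSCs differed more than any of the 6 group means did. The 0 in young ST-HSC replicate 3 stands against a median of 132.5 counts over the libraries, and this was a library with 262 of 1156 genes of similar median at 0. Aged bulk-HSCs had the lowest group mean, 3.68 ± 2.72 CPM (SD, n = 3), with values of 6.56, 3.29 and 1.17 CPM. The age effects of Relb were 0.14 (SE 1.21), 0.11 (SE 1.21) and -1.004 (SE 1.23) in LT-HSCs, ST-HSCs and bulk-HSCs on the log2 scale, each smaller than its error. Without young LT-HSC replicate 3 the first was 0.013, and without young ST-HSC replicate 3 the second was -0.47.

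Of the feedback genes, Nfkbia (chr12:55489410-55492647, minus strand) encodes IkB-alpha, which binds p65 dimers and is itself induced by them. Young LT-HSCs were nearly identical at 115, 115 and 114 CPM, and aged LT-HSCs were at 124, 121 and 104 CPM, around the same mean. Young ST-HSCs were lower at 105, 73.8 and 64.7 CPM, against 109, 117 and 102 CPM in aged ST-HSCs. Bulk-HSCs held 109, 131 and 137 CPM in young and 88.5, 99.1 and 85.4 CPM in aged libraries, and these 2 groups did not overlap, as in 9.29% of genes with the aged group lower. On the log2 scale the age effect was -0.46 in bulk-HSCs (SE 0.16, edgeR adjusted p = 0.177), 0.43 in ST-HSCs (SE 0.16, edgeR adjusted p = 0.309) and 0.02 in LT-HSCs (SE 0.16, edgeR adjusted p = 0.995). Without young ST-HSC replicate 3 the value in ST-HSCs was 0.30. The average of the 3 was -0.004 (SE 0.09).

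Birc3 (chr9:7848699-7873186, minus strand) encodes cIAP2, a ubiquitin ligase that acts at the tumor necrosis factor receptor and restrains the non-canonical arm. Young bulk-HSCs were at 52.2, 76.1 and 55.4 CPM and aged bulk-HSCs at 37.6, 32.3 and 28 CPM, with every aged library below every young one. This was the age effect with the smallest adjusted p among the members, a log2 fold change of -0.91 (SE 0.25, 95% confidence interval -1.44 to -0.37, edgeR adjusted p = 0.0796), and it did not pass the threshold. DESeq2 gave -0.92 with an adjusted p of 0.00864, and in data simulated for LT-HSCs it called 60 unchanged genes where edgeR called 2. That simulation used the spread estimated by edgeR, alike for young and aged libraries, so it does not measure the errors of DESeq2 in bulk-HSCs. With 1 library left out at a time the edgeR value ran from -1.02 to -0.72. In ST-HSCs the levels were 28, 43.4 and 30.2 CPM in young and 48.7, 50.2 and 35.7 CPM in aged libraries, with a log2 fold change of 0.40 (SE 0.25), and in LT-HSCs it was -0.25 (SE 0.25). Birc2, the neighbouring gene for the related cIAP1, with which Birc3 can share reads, was at a log2 fold change of 0.29 (SE 0.18) in bulk-HSCs, with the sign opposite to that of Birc3.

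Tnfaip3 (chr10:19000910-19015657, minus strand) encodes A20, a ubiquitin-editing enzyme that shuts off signalling to the IkB kinases. It was at 27.4, 33.6 and 3.40 CPM in young LT-HSCs and 49.4, 54.0 and 27.6 CPM in aged LT-HSCs. Its age effect there, 1.02 on the log2 scale (SE 0.53, edgeR adjusted p = 0.633), was the highest of any member in any fraction, and the groups overlapped. Without young LT-HSC replicate 3, which held 58 counts where the other young LT-HSC libraries held 503 and 687, it was 0.52. In ST-HSCs Tnfaip3 was at 40.6, 26.0 and 29.7 CPM in young and 35.7, 37.2 and 33.3 CPM in aged libraries (0.14, SE 0.52, and 0.094 without young ST-HSC replicate 3). In bulk-HSCs it was at 32.5, 30.6 and 13.8 CPM in young and 32.0, 30.0 and 42.9 CPM in aged libraries (0.45, SE 0.52). All 3 aged groups had a higher mean than all 3 young groups, 35 to 43.6 against 21.5 to 32.1 CPM, and the average age effect was 0.54 (SE 0.30, edgeR adjusted p = 0.36). With detected genes as a covariate the sign turned, to -0.23 in the average, -0.62 in ST-HSCs and -0.56 in bulk-HSCs.

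Nfkbiz (chr16:55811375-55838899, minus strand) encodes IkB-zeta, a nuclear IkB protein that acts with p50 on secondary response genes. Aged LT-HSCs were the highest group at 67.5, 66.5 and 63.1 CPM, above the 54.6, 41.1 and 18.2 CPM of young LT-HSCs without overlap, as in 10.2% of genes with the aged group higher. The log2 fold change was 0.79 (SE 0.33, edgeR adjusted p = 0.487), and 0.46 without young LT-HSC replicate 3. ST-HSCs were at 40.0, 43.6 and 28.9 CPM in young and 29.1, 43.0 and 60.5 CPM in aged libraries, and bulk-HSCs at 59.4, 48.2 and 39.5 CPM in young and 32.2, 51.1 and 36.7 CPM in aged libraries. Both overlapped, with log2 fold changes of 0.24 (SE 0.33), or 0.086 without young ST-HSC replicate 3, and -0.29 (SE 0.33).

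Icam1 (chr9:21015985-21028817, plus strand), an adhesion molecule for leukocyte integrins and a widely used NF-kB target, was at 47.5, 53.7 and 65.2 CPM in young and 41.8, 38.9 and 41.4 CPM in aged bulk-HSCs. The aged bulk-HSC libraries lay below all young ones, with a log2 fold change of -0.45 (SE 0.28, edgeR adjusted p = 0.572). In LT-HSCs it was at 68.5, 44.7 and 27.1 CPM in young and 66.8, 41.8 and 40.4 CPM in aged libraries, and in ST-HSCs at 59.0, 62.4 and 55.2 CPM in young and 53.1, 63.0 and 40.7 CPM in aged libraries. Replicates spanned more than the group means there, and the log2 fold changes were 0.09 (SE 0.28), or -0.19 without young LT-HSC replicate 3, and -0.17 (SE 0.28). Exons of Gm47079 lie over Icam1 on the opposite strand.

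Across all members, aged and young libraries were free of overlap for 3 in bulk-HSCs, 0 in ST-HSCs and 2 in LT-HSCs, where 22.7%, 17.8% and 16.1% of all genes were. The 3 members in bulk-HSCs, Nfkbia, Birc3 and Icam1, were all lower in aged libraries, and the members in LT-HSCs were Nfkb1, lower, and Nfkbiz, higher. Bulk samples cannot tell fewer cells with a transcript from less transcript per cell, and bulk-HSCs differ from the other fractions in their mixture of LT-HSCs and ST-HSCs, which was not estimated here.

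A further question was whether the age effect differs between LT-HSCs and the other fractions. No member passed an adjusted p of 0.05 in the edgeR interaction tests, of LT-HSCs against ST-HSCs (0% of all genes called, 3.92% at an unadjusted p under 0.05) or LT-HSCs against bulk-HSCs (0.00781% called, 5.82% at an unadjusted p under 0.05). At an unadjusted p under 0.05, Nfkb1 remained in the first and Nfkbia and Nfkbiz in the second. DESeq2 called 0 members in either. The difference between the age effects in LT-HSCs and bulk-HSCs was 1.08 for Nfkbiz (95% confidence interval 0.09 to 2.08, edgeR adjusted p = 0.838, and 0.75 without young LT-HSC replicate 3) and 0.49 for Nfkbia (0.01 to 0.96, edgeR adjusted p = 0.838) on the log2 scale. For Nfkb1 the difference between LT-HSCs and ST-HSCs was -0.40 (-0.74 to -0.06, edgeR adjusted p = 1), and -0.31 without young LT-HSC replicate 3.

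Fractions of one age were also compared. In young mice no member was called between LT-HSCs and ST-HSCs, LT-HSCs and bulk-HSCs, or ST-HSCs and bulk-HSCs, where edgeR called 0.429%, 0.273% and 0.164% of all genes. Nfkbia was the member that stood out, lower in ST-HSCs than in LT-HSCs and bulk-HSCs in every library. On the log2 scale, young LT-HSCs differed from young ST-HSCs by 0.50 (SE 0.16, edgeR adjusted p = 0.228), and young ST-HSCs differed from young bulk-HSCs by -0.63 (SE 0.16, edgeR adjusted p = 0.164). Without young ST-HSC replicate 1, the highest of its group for Nfkbia, the gene passed in both comparisons, with edgeR adjusted p-values of 0.0411 and 0.0185. Without young ST-HSC replicate 3, the lowest of its group for Nfkbia, the values were 0.37 and -0.49, with edgeR adjusted p-values of 0.557 and 0.33. Birc3 was also lower in young ST-HSCs than in young bulk-HSCs without overlap, at -0.85 (SE 0.25, edgeR adjusted p = 0.24), and DESeq2 called Nfkbia (adjusted p = 0.00706) and Birc3 (adjusted p = 0.0344) in that comparison and 0 members in the other 2. Rel was higher in all young ST-HSC libraries than in all young LT-HSC libraries, and the value in LT-HSCs relative to ST-HSCs was -1.08 on the log2 scale (SE 0.52, edgeR adjusted p = 0.494). It was -0.67 without young LT-HSC replicate 3 (edgeR adjusted p = 0.764). At an unadjusted p under 0.05, 1, 0 and 2 members remained in these 3 comparisons, beside 10.4%, 11.5% and 9.63% of all genes. The libraries of the groups did not overlap for 2, 0 and 2 members, where 12.1%, 12.2% and 10.9% of all genes did not.

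In aged mice 0 of 10 members were called in any of the 3 fraction comparisons, where edgeR called 0.00781%, 0% and 0% of all genes, and every member had an adjusted p of 1. At an unadjusted p under 0.05, 1, 2 and 0 members remained, beside 3.41%, 3.29% and 2.7% of all genes, and DESeq2 called 0 members in each. The fit took 1 spread for each gene over young and aged groups together. The median coefficient of variation over genes was 30.1% in young and 18% in aged HSCs. The part of this difference in the errors and p-values of the young and the aged comparisons was not tested. Aged LT-HSCs were lower than aged ST-HSCs in Nfkb1 without overlap (log2 fold change -0.34, SE 0.11). They were higher than aged bulk-HSCs in Nfkbia (0.36, SE 0.16) and Nfkbiz (0.71, SE 0.33), again without overlap. In all, the libraries of the groups did not overlap for 3, 3 and 2 members between aged LT-HSCs and ST-HSCs, LT-HSCs and bulk-HSCs, and ST-HSCs and bulk-HSCs, where 15%, 15.1% and 14.5% of all genes did not. Against aged bulk-HSCs, 9 of 10 members were above 0 in aged LT-HSCs and 10 of 10 in aged ST-HSCs, with medians of 0.30 and 0.24 beside 0.01 and -0.01 over all genes, and these counts share the same aged bulk-HSC libraries. In the same aged bulk-HSC libraries Rel, Rela, Relb, Birc3 and Icam1 had the lowest of their 6 group means. How often this held over all genes was not computed. Ordered by group mean, the 6 groups of a member differed by 1.2-fold (Rela) to 2.47-fold (Relb) from highest to lowest, and of the 5 neighbouring pairs in that order 0 were free of overlap for 8 members and 1 for Nfkbia and Nfkbiz.

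The members varied widely among young libraries. The coefficient of variation within groups was higher in young than in aged HSCs for 8 of 10 members, for example 49.0% against 23.3% for Rel, 46.1% against 19.2% for Tnfaip3 and 24.2% against 15.4% for Birc3. This was general: over 12333 genes the median was 30.1% in young and 18% in aged HSCs, and 85.2% of genes were more variable in young HSCs. Young LT-HSC replicate 3 was apart from its group in 4 members. Against the mean of the other young LT-HSC libraries it was 8.98-fold lower in Tnfaip3, 3.94-fold lower in Rel, 2.64-fold lower in Nfkbiz and 2.09-fold lower in Icam1. In the same library Rela was 1.37 times, Nfkb2 1.29 times, Nfkb1 1.2 times and Birc3 1.14 times that mean, while Nfkbia was 0.992 times and Relb 0.741 times it. In it 17.3% of all genes were more than 2-fold below their level in the other libraries of the group, and 267 of the 1156 genes of moderate count were at 0, and the part of this in the values of the members was not tested.

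**Figure D4:**
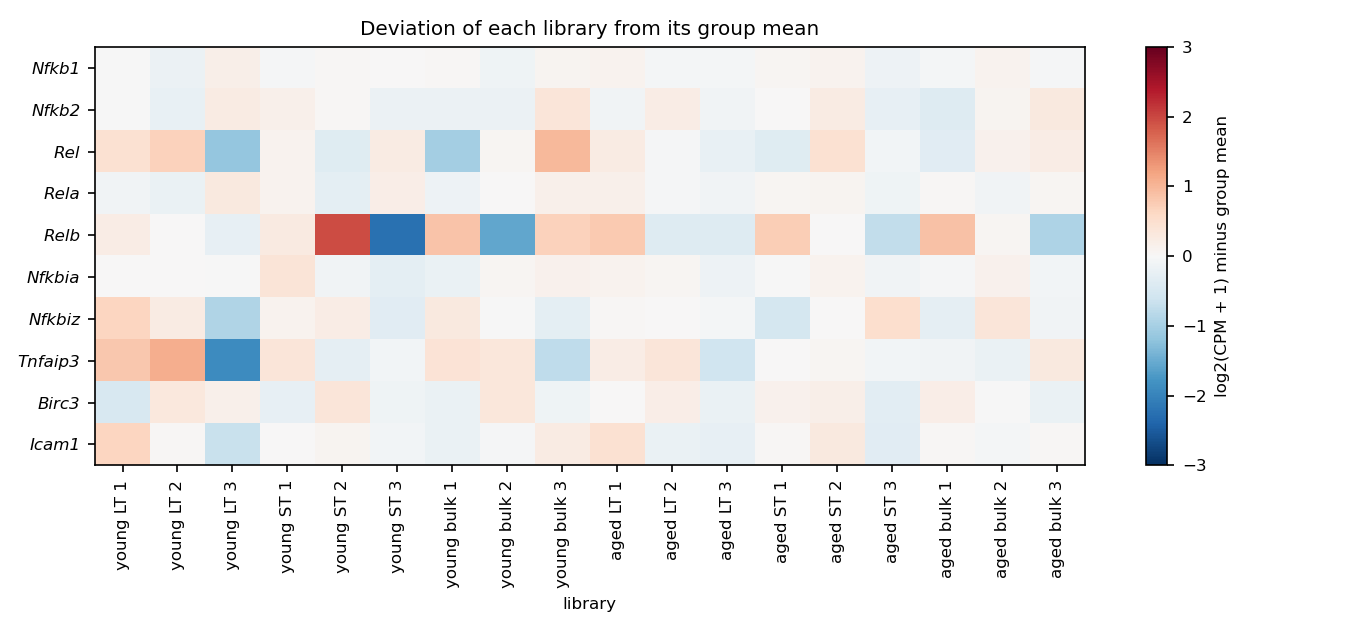
Deviation of each member in each library from its group mean, in log2(CPM + 1), with red above and blue below. Young LT-HSC replicate 3 is furthest below in Tnfaip3, Rel, Nfkbiz and Icam1, close to its group mean in Nfkbia and above it in Nfkb1, Nfkb2, Rela and Birc3, and Relb is uneven throughout.

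Over the 18 libraries, after subtraction of the group means, the closest pairs of members were Rel with Icam1 (Pearson r = 0.66) and Nfkbiz with Tnfaip3 (r = 0.66), and the most opposed pair was Rela with Nfkbiz (r = -0.74). Without young LT-HSC replicate 3 these were 0.41, 0.14 and -0.57 over 17 libraries, and Rela with Nfkbiz was still the most opposed pair. The closest pair was then Nfkb1 with Icam1 (r = 0.72, from 0.08), so the order of the closest pairs rests on that library. These are descriptions across libraries that share the depth and gene detection given above. By the same measure, and among 10912 candidate genes with a mean of at least 5 CPM, the genes most like Tnfaip3 were Pdzk1 and Arsa (r = 0.93 each), those most like Rel were Uchl3 (r = 0.92) and Slc41a3 (r = 0.91), and those most like Nfkbia were Zbtb7a (r = 0.87) and Ehhadh (r = 0.86). Nfkb1 was closest to Ifi27 (r = 0.85) and Bach1 (r = 0.83), Nfkb2 to Gtf3c3 (r = 0.88) and Med29 (r = 0.82), Rela to Muc13 (r = 0.88) and Mrpl28 (r = 0.87), and Relb to Snx13 (r = 0.90) and Vav1 (r = 0.86). Nfkbiz was closest to Ick (r = 0.90) and Fastkd3 (r = 0.86), Birc3 to Gm16070 (r = 0.90) and Mtap (r = 0.84), and Icam1 to Kdm2a and Srp72 (r = 0.86 each). Without young LT-HSC replicate 3, r fell to 0.77 for Pdzk1 and to 0.76 for Arsa with Tnfaip3, to 0.80 for Ick and 0.70 for Fastkd3 with Nfkbiz, and to 0.74 for Kdm2a and 0.73 for Srp72 with Icam1 (17 libraries). For the other 14 genes r was between 0.77 and 0.92 without it. All of these genes were picked as the highest of 10912 candidates, and no chance level was computed for such a pick. The values without 1 library are of the same picked genes, so they are not a separate test of the likeness.

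Around the members, most listed genes of the signalling chain were measured and few passed the test with age. Of 14 listed receptors 10 were tested, and 0 were called in LT-HSCs, ST-HSCs, bulk-HSCs or the average. Of all genes, 0.445%, 0.851%, 1.98% and 6.75% were called in these 4 comparisons. The receptors called are near that background. The median of the receptors in the average was 0.14, beside 0.04 over all genes. Tnfrsf1b, the second receptor for tumor necrosis factor, had an average age effect of 0.19 (SE 0.08, edgeR adjusted p = 0.153). Tnfrsf11a, which encodes RANK, was at 0 counts in all 3 young bulk-HSC libraries and at 2.25, 3.95 and 2.05 CPM in the aged ones, and its edgeR adjusted p there was 0.191. All 30 listed adaptors and kinases were tested, and 1 was called lower and 0 higher in bulk-HSCs and in the average, with a median of 0.08 in the average. This was Tab2, an adaptor of the kinase TAK1, at 210, 204 and 215 CPM in young and 143, 144 and 154 CPM in aged bulk-HSCs. It fell by 0.51 on the log2 scale there (SE 0.12, edgeR adjusted p = 0.0272) and by 0.28 in the average (SE 0.07, edgeR adjusted p = 0.0155), and it lost the call in bulk-HSCs in 5 of 6 fits without 1 library. Map3k7, which encodes TAK1 itself, was at 0.51 in the average (SE 0.16, edgeR adjusted p = 0.0663).

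Of 20 further inhibitors, all tested, 2 were called higher and 0 lower in the average, 1 higher in ST-HSCs and 1 in bulk-HSCs, with a median of 0.06 in the average. Of all genes, 6.75%, 0.851% and 1.98% were called in the average, ST-HSCs and bulk-HSCs. Tnip3, which encodes ABIN-3, a partner of A20, was at 44.1, 58.8 and 56.8 CPM in young and 105, 113 and 95.1 CPM in aged ST-HSCs, and at 53.3, 44.0 and 53.0 CPM in young and 102, 99.2 and 112 CPM in aged bulk-HSCs. Young and aged libraries did not overlap in these fractions or in LT-HSCs, where young libraries were at 67.9, 77.7 and 39.8 CPM and aged ones at 94.0, 89.7 and 79.1 CPM. It rose by 0.84 on the log2 scale in the average (SE 0.12, edgeR adjusted p = 1.71e-04), by 1.06 in bulk-HSCs (SE 0.20, edgeR adjusted p = 0.00982) and by 0.97 in ST-HSCs (SE 0.20, edgeR adjusted p = 0.0284), and its value in LT-HSCs was 0.50 (SE 0.20, edgeR adjusted p = 0.439). The call in ST-HSCs was lost in 5 of 6 fits without 1 library. Irak3, which encodes IRAK-M, a brake on Toll-like receptor signalling, was higher in the average by 0.46 (SE 0.09, edgeR adjusted p = 0.00363) and in no single fraction. Both averages kept their call in every fit without 1 library.

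Some listed inflammatory targets of the pathway were not detected in any library. Of 36 other listed targets 18 were tested, beside 12808 of all 24421 genes, so the share tested was near the background. Of the 36 targets, 8 had no count in any library, and the share of all genes without a count was not computed. Among the 8 were the cytokine genes Il6, Csf2 and Csf3 and the chemokine genes Cxcl1 and Ccl20, which were chosen for mention after their values were seen. By counting error alone, a count of 0 allows a level of up to 0.132 to 0.176 CPM in a library. Of 1156 genes with a median of 100 to 200 counts, up to 267 were at 0 in a young library. A count of 0 there can therefore go with a higher level. Il1b had a count in 1 of 18 libraries and Tnf a mean of 1.26 CPM. Of the 18 tested, 3 were called higher and 0 lower in the average, where 6.75% of all genes were called, with a median of 0.30. Selp, the platelet and endothelial adhesion molecule P-selectin, was at 9.59, 12.6 and 9.65 CPM in young and 208, 262 and 259 CPM in aged ST-HSCs and rose by 4.52 on the log2 scale (SE 0.51, edgeR adjusted p = 1.19e-04). It rose by 4.10 in bulk-HSCs (SE 0.50, edgeR adjusted p = 2.41e-04), and in LT-HSCs it was at 2.07 (SE 0.45, edgeR adjusted p = 0.0534). Xiap, a caspase inhibitor, rose by 0.87 in the average (SE 0.15, edgeR adjusted p = 0.00182) and by 1.08 in bulk-HSCs (SE 0.27, edgeR adjusted p = 0.045), a call lost in 5 of 6 fits without 1 library. Tnfaip2 was at 0.47 in the average (SE 0.13, edgeR adjusted p = 0.0369), and lost its call in 12 of 18 fits without 1 library.

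**Figure D5:**
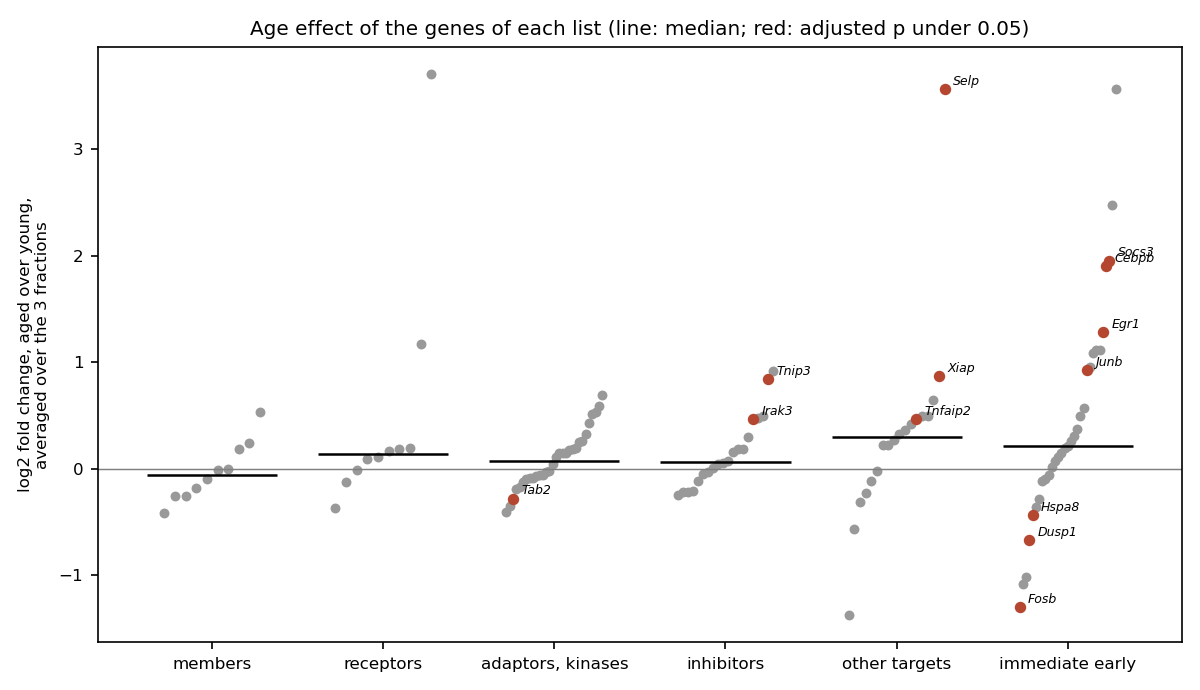
Average age effect over the 3 fractions of the tested genes of each list, as log2 fold changes, with genes of an edgeR adjusted p under 0.05 in red and the list median as a line. Red genes are 0 of 10 members, 0 of 10 receptors, 1 of 30 adaptors and kinases, 2 of 20 inhibitors, 3 of 18 other targets and 7 of 31 immediate early genes. Over all 12808 genes tested, 6.75% were called in this average.

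The immediate early list was meant for genes induced within minutes of stress or tissue handling, though not every gene on it need be of this kind. Its called genes went in both directions with age. Of 33 listed immediate early genes 31 were tested, and 4 were called higher and 3 lower in the average, with a median of 0.22. Of all genes, 6.75% were called in the average. Cebpb, Socs3, Egr1 and Junb rose, by 1.90 (SE 0.28, edgeR adjusted p = 2.91e-04), 1.95 (SE 0.40, edgeR adjusted p = 0.00515), 1.28 (SE 0.28, edgeR adjusted p = 0.00827) and 0.92 (SE 0.19, edgeR adjusted p = 0.00495) on the log2 scale. Fosb, Dusp1 and Hspa8 fell, by 1.3 (SE 0.31, edgeR adjusted p = 0.0161), 0.67 (SE 0.19, edgeR adjusted p = 0.0363) and 0.44 (SE 0.08, edgeR adjusted p = 0.00264), and Dusp1 lost its call in 10 of 18 fits without 1 library. In bulk-HSCs Cebpb rose by 3.32 (SE 0.51, edgeR adjusted p = 0.00176) and Hspa8 fell by 0.56 (SE 0.14, edgeR adjusted p = 0.0467), and the call of Hspa8 was lost in 5 of 6 fits without 1 library. Fos and Jun were at 0.22 (SE 0.46) and 0.11 (SE 0.16) in the average. Aged bulk-HSC replicate 2 had 12 of 31 immediate early genes more than 2-fold above the other aged bulk-HSC libraries, with Fos at 165 CPM against 22.6 and 27.8 CPM and Jun at 488 CPM against 154 and 261 CPM. Of all genes, 2.6% were more than 2-fold above and 3.84% more than 2-fold below in this library. No member was more than 2-fold above or below in it, which is near that background. When each library's count of detected genes was added to the fit, an alternative chosen after the data were seen, Selp, Socs3 and Tnfaip2 kept their call in the average among the genes of these lists called there, and the other 10 did not. The effects of those 10 kept their sign, and 9 of them were 0.744 to 1.14 times their size without the covariate, while Fosb went from -1.3 to -0.47. The calls of Tnip3 in ST-HSCs and bulk-HSCs and of Tab2, Xiap and Hspa8 in bulk-HSCs were lost with it too, and the part of gene detection in them was not tested further.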

How the data were processed

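RNA was measured in 18 libraries of HSCs sorted from bone marrow enriched for c-Kit, 3 for each of 6 groups of fraction and age. The authors sequenced ribosome-depleted RNA in read pairs, aligned the reads to mm10 with HISAT2, used SAMtools 1.7 and StringTie 1.3.4d, and deposited gene counts that were not normalised. The annotation, the step from StringTie to counts and whether strand was used are not given in the sources used here. The counts were tested with edgeR 4.0.16 (R 4.3.3) by the quasi-likelihood test, in 1 fit of the 6 group means over all 18 libraries with TMM factors. Of 24421 genes, the 12808 with a mean of at least 1 CPM were tested, and p-values were adjusted over all of them by the Benjamini-Hochberg method with a threshold of 0.05. Standard errors were derived from the F statistic. Correlations used log2(CPM + 1).

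The members and lists were chosen with earlier results of these data known. All members are named. From the pathway lists, genes that passed the threshold in an age effect and the 2 of smallest p in the average are named, from the immediate early list those that passed and Fos, Jun and Egr1, and for each member the 2 genes of highest correlation. Lengths and coordinates are from GENCODE M21 on mm10. The coordinates of the genes and promoter windows share this build.

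Libraries held 16495048 to 22973844 counts. Samples were grouped by the labels. In data simulated for the age effect in LT-HSCs, with 200 of 12808 genes changed, edgeR called 27 of 100 genes changed 2-fold, 67 of 100 changed 4-fold and 2 unchanged genes, and DESeq2 called 41, 79 and 60, so an absent call does not show that a 2-fold change is absent. The simulated counts used the edgeR spread of each gene, without the wider spread of the young libraries, so these rates need not hold in the data. Alternatives were another normalisation (RLE factors or library size alone), other filters, fits of the compared groups only, a replicate block, DESeq2 1.42.0 and leaving out each library.

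Replicate numbers were checked for pairing over 18 pairs of libraries with the same number. Deviations from the group means correlated between -0.04 and 0.12, with 1 pair over 0.1. Pairs of LT-HSCs with ST-HSCs were all above 0, from 0.017 to 0.12, and pairs with bulk-HSCs ran from -0.044 to 0.038. Pairs of unlike numbers were not compared, so the check cannot exclude that LT-HSC and ST-HSC libraries of one number are paired. The main fit did not pair libraries, and a replicate block was an alternative.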

Additional observations from a re-analysis of the deposited data

How the results depend on the processing

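Over the alternatives, 1 of 746 values of the members' age effects passed the adjusted threshold, and 51 took the other sign, 47 of them for effects smaller than their standard error. DESeq2 called 1 member with age in bulk-HSCs (Birc3) and 2 between young ST-HSCs and young bulk-HSCs (Nfkbia and Birc3). Without 1 library at a time, the number of members called ran from 0 to 1 between young LT-HSCs and young ST-HSCs and from 0 to 1 between young ST-HSCs and young bulk-HSCs, with the 1 being Nfkbia without young ST-HSC replicate 1. With library size alone in place of TMM, the age effect of Nfkbia in LT-HSCs was -0.014. With detected genes as a covariate, an alternative added after the data were seen, the log2 age effects that changed sign were in LT-HSCs Relb at -0.91, Nfkbia at -0.083 and Icam1 at -0.039, in ST-HSCs Rela at 0.15, Relb at -0.27, Nfkbiz at -0.044 and Tnfaip3 at -0.62, in bulk-HSCs Nfkb1 at 0.12, Rela at 0.13 and Tnfaip3 at -0.56, and in the average Nfkb1 at 0.029, Rela at 0.23, Nfkbiz at -0.10 and Tnfaip3 at -0.23. Without young LT-HSC replicate 3 and young ST-HSC replicate 3, also added later, Rel was at -0.15 and Icam1 at -0.20 in LT-HSCs, Rela at 0.056 and Relb at -0.47 in ST-HSCs, and Rela at 0.078 in the average. With 1 library left out at a time, effects that changed sign ran in LT-HSCs from -0.14 to 0.62 for Rel, -0.43 to 0.36 for Relb, -0.027 to 0.098 for Nfkbia and -0.19 to 0.47 for Icam1. In ST-HSCs they ran from -0.19 to 0.053 for Rela, -0.47 to 1.74 for Relb and -0.057 to 0.46 for Nfkbiz. In bulk-HSCs they ran from -0.090 to 0.0071 for Nfkb1 and -0.077 to 0.28 for Nfkb2, and in the average from -0.057 to 0.045 for Rela, -0.49 to 0.29 for Relb and -0.050 to 0.072 for Nfkbia. The cause of these changes was not tested. With a replicate block, 0 members were called in all 12 comparisons, and 77, 96, 238 and 855 genes were called with age in LT-HSCs, ST-HSCs, bulk-HSCs and the average, against 57, 109, 253 and 864 without it. The numbers of genes called with age under DESeq2 were 290, 448, 741 and 1494, and under the covariate 23, 54, 82 and 153. Little can be said of Relb, with a median of 132.5 counts and 1 library at 0, and the part of depth or gene detection in this was not tested.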
